A study of Mus musculus with 2 samples.

Results

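Genes that mark the secretory and transport work of the choroid plexus epithelium were followed through single cells of the adult mouse brain: Ttr, Enpp2, Kl, Folr1, Sostdc1, Prlr, Clic6, Trpm3, Car12 and Htr2c. They were taken by gene symbol from the count matrices, where all 10 members were present among 26033 genes. The study, whose title concerns interleukin-34-dependent perivascular macrophages, sorted mural cells and fibroblasts, endothelial cells, astrocytes, border-associated macrophages (BAMs) and microglia from whole brain. Both groups carry a floxed Csf1r allele: the control is Csf1rfl/fl, and the mutant is Mrc1Cre:Csf1rfl/fl, in which Cre is driven from Mrc1, a gene of BAMs. There was 1 library per group, so no test between genotypes exists and all intervals cover counting error only; the labels do not say how many animals a library holds. None of the sort gates named in the labels was meant for choroid plexus epithelium, yet these cells were in both libraries.

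The choroid plexus projects into the brain ventricles. Its cuboidal epithelium secretes cerebrospinal fluid, carries vitamins and hormones from blood into it, and forms the blood to fluid barrier. Ttr encodes transthyretin, the thyroxine and retinol-binding protein carrier that this epithelium secretes. Other members are secreted enzymes and antagonists (Enpp2, Sostdc1), a shed co-receptor for fibroblast growth factor 23 (Kl), receptors (Folr1 for folate, Prlr for prolactin, Htr2c for serotonin) and ion-handling proteins (Clic6, Trpm3, Car12). RNA of abundant genes can leak into the suspension and enter droplets of other cells, so each member was read in every other cell class as well.

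Promoter sequence, read from RefSeq on GRCm38.p6, was at hand for 5 of the 10 members, in 8 windows of 250 bases before a start site. The first windows of Htr2c, Trpm3, Car12 and Prlr are shown because these 4 members stood at least 1.48 times higher in the smaller of the choroid plexus clusters described below, and that of Kl because it did not. They read 5′ to 3′ on the plus strand, and capitals mark the forkhead core TGTTTA.
Htr2c (chrX:146962263-146962512): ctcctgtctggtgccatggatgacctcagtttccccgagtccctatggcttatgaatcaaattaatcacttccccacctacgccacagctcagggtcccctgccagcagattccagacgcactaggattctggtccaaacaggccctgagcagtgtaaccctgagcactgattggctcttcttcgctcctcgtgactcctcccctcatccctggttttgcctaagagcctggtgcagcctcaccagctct
Trpm3 (chr19:22138796-22139045): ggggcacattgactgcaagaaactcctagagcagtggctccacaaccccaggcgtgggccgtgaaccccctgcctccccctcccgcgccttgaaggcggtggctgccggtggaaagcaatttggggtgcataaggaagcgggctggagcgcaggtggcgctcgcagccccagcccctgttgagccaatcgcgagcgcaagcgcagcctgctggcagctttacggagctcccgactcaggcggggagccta
Car12 (chr9:66713436-66713685): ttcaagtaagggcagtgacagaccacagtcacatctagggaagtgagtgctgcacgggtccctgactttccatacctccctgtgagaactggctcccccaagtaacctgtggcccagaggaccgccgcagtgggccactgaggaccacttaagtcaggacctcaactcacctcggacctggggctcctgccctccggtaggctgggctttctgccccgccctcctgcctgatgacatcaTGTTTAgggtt
Prlr (chr15:10176988-10177237): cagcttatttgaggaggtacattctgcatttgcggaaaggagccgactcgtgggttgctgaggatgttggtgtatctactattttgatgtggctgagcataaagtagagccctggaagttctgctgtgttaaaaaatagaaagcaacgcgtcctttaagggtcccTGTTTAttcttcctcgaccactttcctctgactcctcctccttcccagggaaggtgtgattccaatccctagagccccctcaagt
Kl (chr5:150952357-150952606): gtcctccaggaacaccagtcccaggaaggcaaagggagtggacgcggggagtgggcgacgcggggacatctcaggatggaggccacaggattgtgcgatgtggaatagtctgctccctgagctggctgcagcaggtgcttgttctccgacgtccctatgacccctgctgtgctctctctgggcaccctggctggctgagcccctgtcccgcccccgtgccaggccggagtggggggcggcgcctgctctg
The forkhead core, searched on both strands, was in 3 of the 8 windows (Car12, with its first base 11 bases before the start, and the first and second windows of Prlr), against 12.03% of 32851 RefSeq windows of the same length. The STAT palindrome TTCNNNGAA was in 1 window, the second of Prlr, against 7.02% of all windows. The OTX2 core TAATCC (6.25% of all windows) and the TATA box core TATAAA (12.4%) were in none of the 8. The windows of Htr2c, Trpm3 and Kl held none of the 4 motifs.

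The control library held 8739 barcodes and 85716531 UMIs, and the mutant library 8735 barcodes and 82806348 UMIs, with 17 barcode sequences shared by the libraries. After filters, 5609 and 6123 cells were kept. Csf1r, the targeted gene, stood at 1516 CPM (counts scaled to 1000000 UMIs of the class) in control and 1202 CPM in mutant BAM-like cells, and at 2363 and 1874 CPM in microglia-like cells; the 3′ tags can lie outside the deleted part and do not check the deletion. Choroid plexus epithelium-like cells were 631 in the control (11.2% of kept cells, exact 95% interval 10.4 to 12.1) and 1070 in the mutant (17.5%, 16.5 to 18.5). The labels do not say how many cells of each gate were loaded. The class came from clusters built without the 10 members and named with 16 other markers, of which 15 are in the matrix. None of the 15 was at 0, from 23.1 and 23.2 CPM for the claudin gene Cldn1 to 3750 and 3699 CPM for the secreted peptide gene Ecrg4. In these cells the 8 microglial markers summed to 295 CPM in control cells and 244 CPM in mutant cells, and the 8 ependymal markers to 801 and 824 CPM, none of either list at 0. The 8 markers of pituitary or pineal endocrine cells summed to 76.5 CPM in the control, 4 of them at 0, and to 2.43 CPM in the mutant, 6 of them at 0. Their part in the results was not tested.

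Ttr (chromosome 18, 20665280 to 20674321, plus strand, GRCm38) was the most abundant gene of these cells in both libraries. It made up 29.8% of all UMIs in the control and 29.0% in the mutant, or 297653 CPM (297340 to 297967) and 290204 CPM (289950 to 290458). Every choroid plexus epithelium-like cell held it: the share of a cell's UMIs ran from 3.37% over a median of 29.6% to 63.7% in the control, and from 2.03% over 29.1% to 56.9% in the mutant. The genotypes overlapped almost entirely, and the mutant to control ratio was 0.975 (0.974 to 0.976). All 10 members together took 32.0% of control and 31.3% of mutant UMIs, and the 9 others without Ttr 2.22% and 2.31%. Because 3′ UMIs count molecules rather than fragments, levels are compared between genes without a correction for length; UMIs from introns of long genes, if counted, would add to their levels.

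Enpp2 (chromosome 15, 54838901 to 54952892, minus strand) encodes autotaxin, the secreted enzyme that makes lysophosphatidate. It ranked second of all genes, at 15413 CPM (15342 to 15485) in control cells and 15492 CPM (15434 to 15551) in mutant cells, with a mutant to control ratio of 1.005 (0.999 to 1.011). Kl (chromosome 5, 150952607 to 150993817, plus strand), the klotho gene, stood at 641 CPM (626 to 655) and 585 CPM (573 to 596). Its ratio of 0.912 (0.885 to 0.940) was the lowest of the 10 members. Sostdc1 (chromosome 12, 36314139 to 36318452, plus strand), a secreted antagonist of bone morphogenetic protein and Wnt signals, stood at 921 CPM (904 to 939) in control and 945 CPM (930 to 959) in mutant cells, with a mutant to control ratio of 1.025 (1.001 to 1.051). Kl thus showed the largest difference among the secreted members.

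Among the receptors, Folr1 (chromosome 7, 101858331 to 101870788, minus strand), which carries folate across the epithelium, stood at 1072 CPM (1054 to 1091) in control cells and 1068 CPM (1053 to 1084) in mutant cells. Its ratio was 0.996 (0.974 to 1.019), with 1 inside the interval. Prlr (chromosome 15, 10177238 to 10349180, plus strand), the prolactin receptor, stood at 880 CPM (863 to 897) in control and 947 CPM (932 to 961) in mutant cells, with a mutant to control ratio of 1.076 (1.049 to 1.103). Htr2c (chromosome X, 146962513 to 147197277, plus strand), the Gq-coupled serotonin 2C receptor, stood at 639 CPM (624 to 653) and 952 CPM (938 to 967). That ratio, 1.491 (1.451 to 1.533), was the highest of the 10 members and fell just short of the 1.5-fold used to call a difference. Folr1 overlaps Anapc15 on the other strand and Prlr overlaps Gm21973 on the same strand, both also in the matrix, so their counts could be split or shared.

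Of the ion-handling members, Clic6 (chromosome 16, 92485736 to 92541243, plus strand), of the chloride intracellular channel family, stood at 443 CPM (431 to 455) and 442 CPM (432 to 452). Its ratio was 0.999 (0.964 to 1.035). Car12 (chromosome 9, 66713686 to 66766845, plus strand), a membrane-bound carbonic anhydrase, was the lowest member at 164 CPM (157 to 172) in control and 173 CPM (167 to 180) in mutant cells, with a mutant to control ratio of 1.058 (0.998 to 1.121). Trpm3 (chromosome 19, 22139046 to 22995410, plus strand), a cation channel gene of 856 kb, stood at 2031 CPM (2005 to 2057) in control and 2528 CPM (2505 to 2552) in mutant cells, with a mutant to control ratio of 1.245 (1.226 to 1.265). Over the class as a whole, the descending order in both libraries was Ttr, Enpp2, Trpm3 and Folr1, with Clic6 and Car12 last. Between them the order changed. In the control Sostdc1 and Prlr stood above Kl and Htr2c, which did not differ beyond their intervals. In the mutant Htr2c, Prlr and Sostdc1 did not differ beyond their intervals, and Kl stood below them.

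Htr2c ranked 196th among all genes of the class in the control and 123rd in the mutant, whereas Folr1 ranked 99th in both. No member was called higher and none lower by the rule of at least 1.5-fold with an interval excluding 1, among 10730 genes with at least 50 UMIs. By the same rule 1.77% of those genes were called higher in the mutant, 1.78% lower and 3.55% in either direction. The median log2 ratio was 0.02 over the 10 members and 0.04 over all genes measured. None of the 10 members was called under any of 16 other settings either, which gave 159 member ratios, all within 1.5-fold. All settings read the same 2 libraries, and the limit of at least 20 UMIs left every ratio as it was. Within single bands of mitochondrial share, read in marker-gated barcodes, Htr2c and Trpm3 did differ by more than 1.5-fold, in opposite directions in low and high bands; those values come last.

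**Figure D1:**
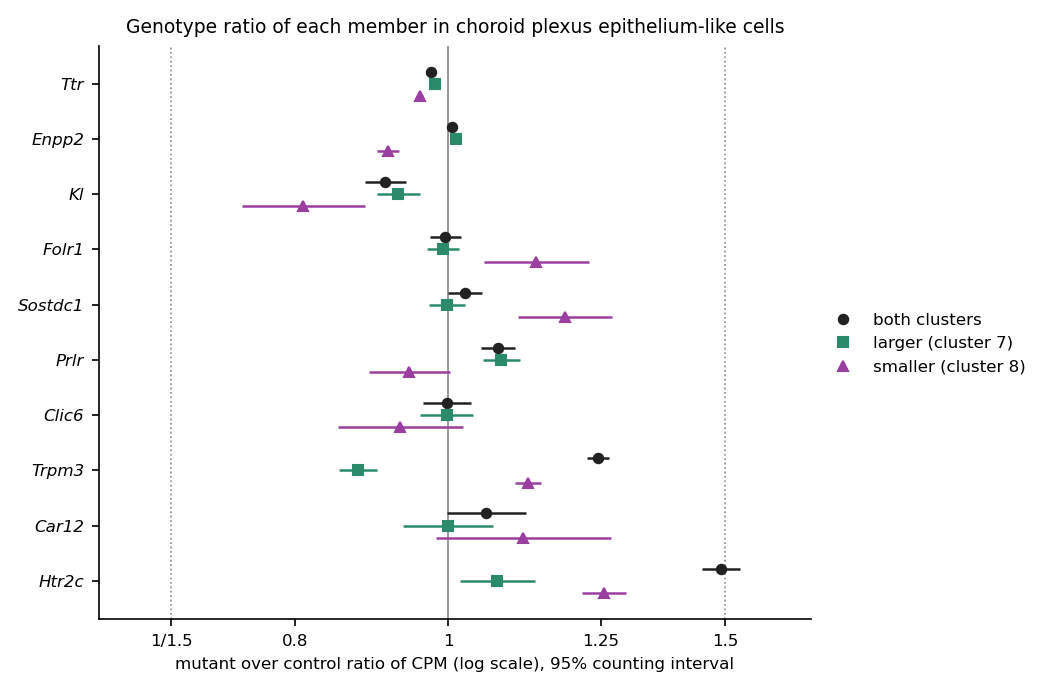
Mutant over control ratio of CPM (log axis) for each member in all choroid plexus epithelium-like cells (black circles), the larger cluster (green squares) and the smaller cluster (purple triangles), with 95% counting intervals as bars; dotted lines mark 1.5-fold in each direction. Htr2c at 1.491 lies nearest to a dotted line, and the black circle of Trpm3 lies above both of its cluster values.

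The choroid plexus epithelium-like cells fell into a larger and a smaller cluster, and the members divided along them. Cluster 7, with 590 control and 979 mutant cells, was led by genes other than the members with a median genomic span of 9.82 kb. Cluster 8, with 41 control and 91 mutant cells, was led by Frmpd4, Gmnc (a regulator of multiciliated cells), Fras1, Grm8, Esrrg, Tmem108, Cacnb4, Cdh18, Agbl4 and Lmx1a (a roof plate transcription factor), whose median span was 508 kb, 9 of the 10 being at least 100 kb long. Genes of at least 100 kb, members left out, gave 16.4% of control and 16.5% of mutant UMIs in cluster 8, against 5.17% and 5.02% in cluster 7. Cluster 8 cells were also deeper, with a median of 27030 and 25633 UMIs against 16674 and 13747. The part of gene span and depth in the differences between the clusters was not tested. None of its leading 10 genes was a marker of the class, but it carried 14 of the 15 markers, which summed to 8385 and 8127 CPM, beside 7852 and 7874 CPM over both clusters. Markers of some other cell types were also higher there: the neuron markers summed to 110 and 96.8 CPM in cluster 8 against 19.6 and 20.04 CPM over both clusters, the endothelial markers to 158 and 81.4 against 44.1 and 46.0 CPM, the microglial markers to 364 and 426 against 295 and 244 CPM, and the astrocyte markers to 172 and 204 against 146 and 110 CPM. Their part in the split of Htr2c and Trpm3 described next was not tested.

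Htr2c stood at 204 CPM in control and 219 CPM in mutant cells of cluster 7, and at 4254 and 5343 CPM in cluster 8. Cluster 8 was thus 20.8 times higher (19.8 to 21.9) in the control and 24.4 times higher (23.4 to 25.3) in the mutant. Trpm3 showed the same split, with 878 and 770 CPM in cluster 7 and 11625 and 13066 CPM in cluster 8, 13.2 (12.9 to 13.6) and 17.0 (16.6 to 17.3) times higher. The order of members given for the whole class therefore did not hold in cluster 7. There Trpm3 stood below Folr1 (1109 and 1101 CPM) and Sostdc1 (920 and 918 CPM), and Htr2c below Clic6 (425 CPM in both libraries). Few cells of the clusters overlapped. For Htr2c, 39 of the 41 control and 87 of the 91 mutant cells of cluster 8 lay above the 95th percentile of cluster 7 in their library, and 33 and 74 of them above its highest cell. For Trpm3, 40 of 41 and 89 of 91 lay above that percentile. So the small cluster, 6.50% of control (4.70 to 8.71) and 8.50% of mutant (6.90 to 10.3) choroid plexus epithelium-like cells, held 71.5% and 80.3% of the Htr2c UMIs of the class and 61.4% and 73.9% of its Trpm3 UMIs.

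**Figure D2:**
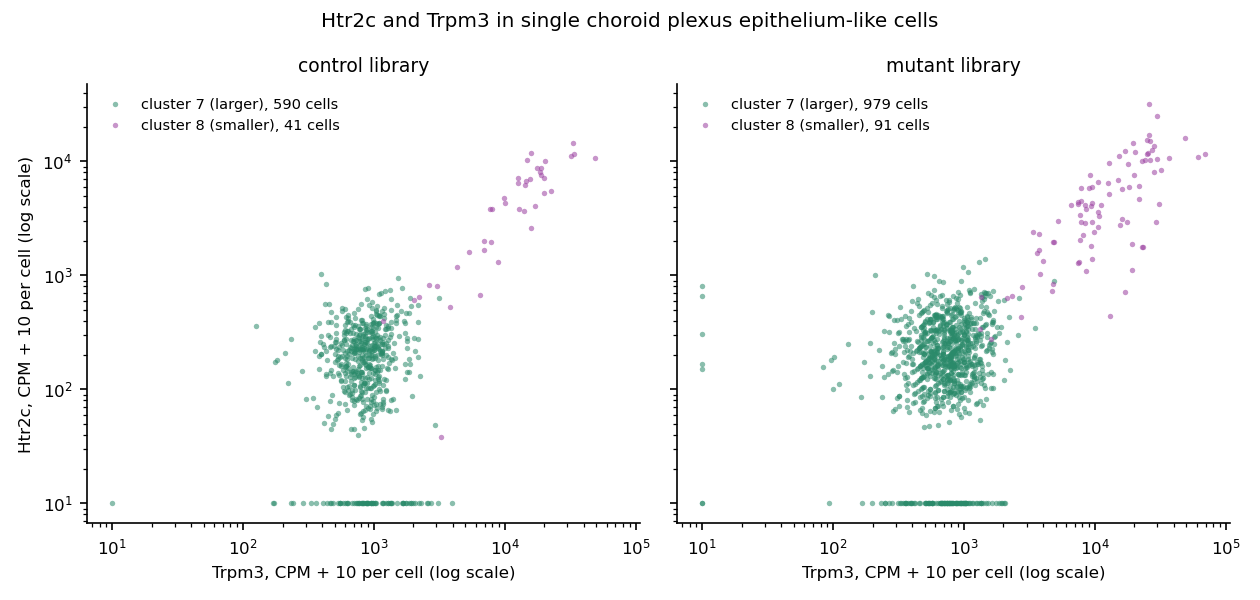
Each point is 1 choroid plexus epithelium-like cell, with Trpm3 on the x axis and Htr2c on the y axis, both as CPM + 10 on log axes; green is cluster 7, purple cluster 8. In both libraries the purple cells extend the green cloud up and to the right along both genes, with medians of 4321 and 4126 CPM for Htr2c in cluster 8 against 176 and 181 CPM in cluster 7.

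The remaining members differed less between the clusters. Car12 stood at 150 CPM in cluster 7 of both libraries and at 283 and 315 CPM in cluster 8, 1.89 (1.68 to 2.12) and 2.11 (1.94 to 2.29) times higher. Prlr was 1.699 (1.61 to 1.79) and 1.48 (1.43 to 1.54) times higher in cluster 8, Clic6 1.38 and 1.29 times, and Enpp2 1.31 and 1.19 times. Folr1 went the other way, at 0.692 (0.648 to 0.740) and 0.794 (0.758 to 0.830) of its cluster 7 level. Ttr was at 0.919 and 0.899 of that level and Kl at 0.984 and 0.856, while Sostdc1 was at 1.009 and 1.1996. Because the cells were clustered on other genes of the same cells, these ratios describe the clusters and test nothing.

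The genotype ratios changed once the clusters were read apart. Htr2c was 1.075 (1.017 to 1.136) in cluster 7 and 1.256 (1.216 to 1.297) in cluster 8, both below the pooled 1.491. Trpm3 was lower in the mutant in cluster 7, at 0.877 (0.853 to 0.901), and higher in cluster 8, at 1.124 (1.102 to 1.146). Its level in cluster 7, 878 and 770 CPM, was below the lowest of the other named classes, 1438 and 1039 CPM in erythroid-like cells. What part of the cluster 7 level came from RNA of other cells was not tested. None of the 10 members was called in either cluster, where in cluster 7 1.22% of 10160 genes were called higher and 2.59% lower (3.81% in either direction), and in cluster 8 2.85% of 7216 higher and 1.80% lower (4.66%). The pooled Htr2c ratio also differed under other limits on mitochondrial UMIs, but these also changed which clusters were named as the class. With at most 25% in place of 10% the ratio was 1.076, and with at most 5% it was 1.033. Trpm3 moved to 0.969 and 1.008. With the 25% limit the cluster high in Htr2c and Trpm3 was 6.35% of control and 5.31% of mutant choroid plexus epithelium-like cells (74 and 100 cells), so its share was no longer larger in the mutant; a further cluster of 2 control and 15 mutant cells with 12 of the markers was too small to be named. With the 5% limit the class had no such cluster, and a cluster of 4 control and 16 mutant cells with 14 of the markers was too small to be named. The 5% ratios therefore covered only cells low in Htr2c (188 and 195 CPM) and do not show what the limit itself does. Marker-gated barcodes of up to 5%, described last, do not depend on cluster names. There Htr2c read 320 (control) and 749 CPM (mutant), and Trpm3 1261 and 2615 CPM.

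Within cluster 7 the members varied from cell to cell by different amounts. The coefficient of variation of CPM over cells was lowest for Ttr (0.28 in the control, 0.25 in the mutant) and Enpp2 (0.36 and 0.37), and highest for Car12 (0.87 and 0.90) and Htr2c (0.80 and 0.83), which have few UMIs per cell. After thinning to 2000 UMIs a cell, which left out 10 control and 5 mutant cells of the class, Ttr and Enpp2 were in every cell of both libraries. Folr1 was then in 85.3% of control and 84.3% of mutant cells, Kl in 67.0% and 65.8%, and Car12 in 29.5% and 25.1%, against 97.9% and 98.97%, 98.6% and 98.0%, and 82.4% and 80.4% unthinned. In microglia-like cells, which should lack these genes, the thinned shares were 0.76% and 1.16% for Folr1, 0.65% and 0.96% for Kl and 0.11% and 0.12% for Car12, at median depths of 8799 and 8773 UMIs against 17051 and 14674. Across the thinned cells of cluster 7, the 45 pairs of members had correlations of log2(UMIs + 1) from -0.16 to 0.46 in 580 control cells and from -0.09 to 0.40 in 974 mutant cells, with medians of 0.05 and 0.06. Ttr with Enpp2 was the highest pair in both, at 0.46 and 0.40; these cells share a library and Ttr takes up part of every thinned cell.

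Ttr was found in every class of cells. Its median share of a cell's UMIs was 0.183% in control and 0.1997% in mutant microglia-like cells, 0.204% and 0.227% in astrocyte-like cells, and 0.0932% and 0.111% in erythroid-like cells. Only pericyte-like cells of the mutant, 11 in number, exceeded 1% at the median, with 1.12%. A few cells weighed on the sums: 1 of 49 control fibroblast-like cells held 86.9% of that class's Ttr UMIs, 3 of 65 mutant monocyte or dendritic cell-like cells 86.2%, and 1 of 20 mutant oligodendrocyte-like cells 96.0%, each with over 2% of its UMIs from Ttr. In microglia-like cells, the largest other class, 9 of the 10 members, all but Trpm3, stood at 0.257% to 0.743% of their choroid plexus level in the control and at 0.223% to 0.726% in the mutant, with Ttr at 0.614% and 0.678%. For those 9 members choroid plexus epithelium-like cells had the highest level of all named classes in both libraries.

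**Figure D3:**
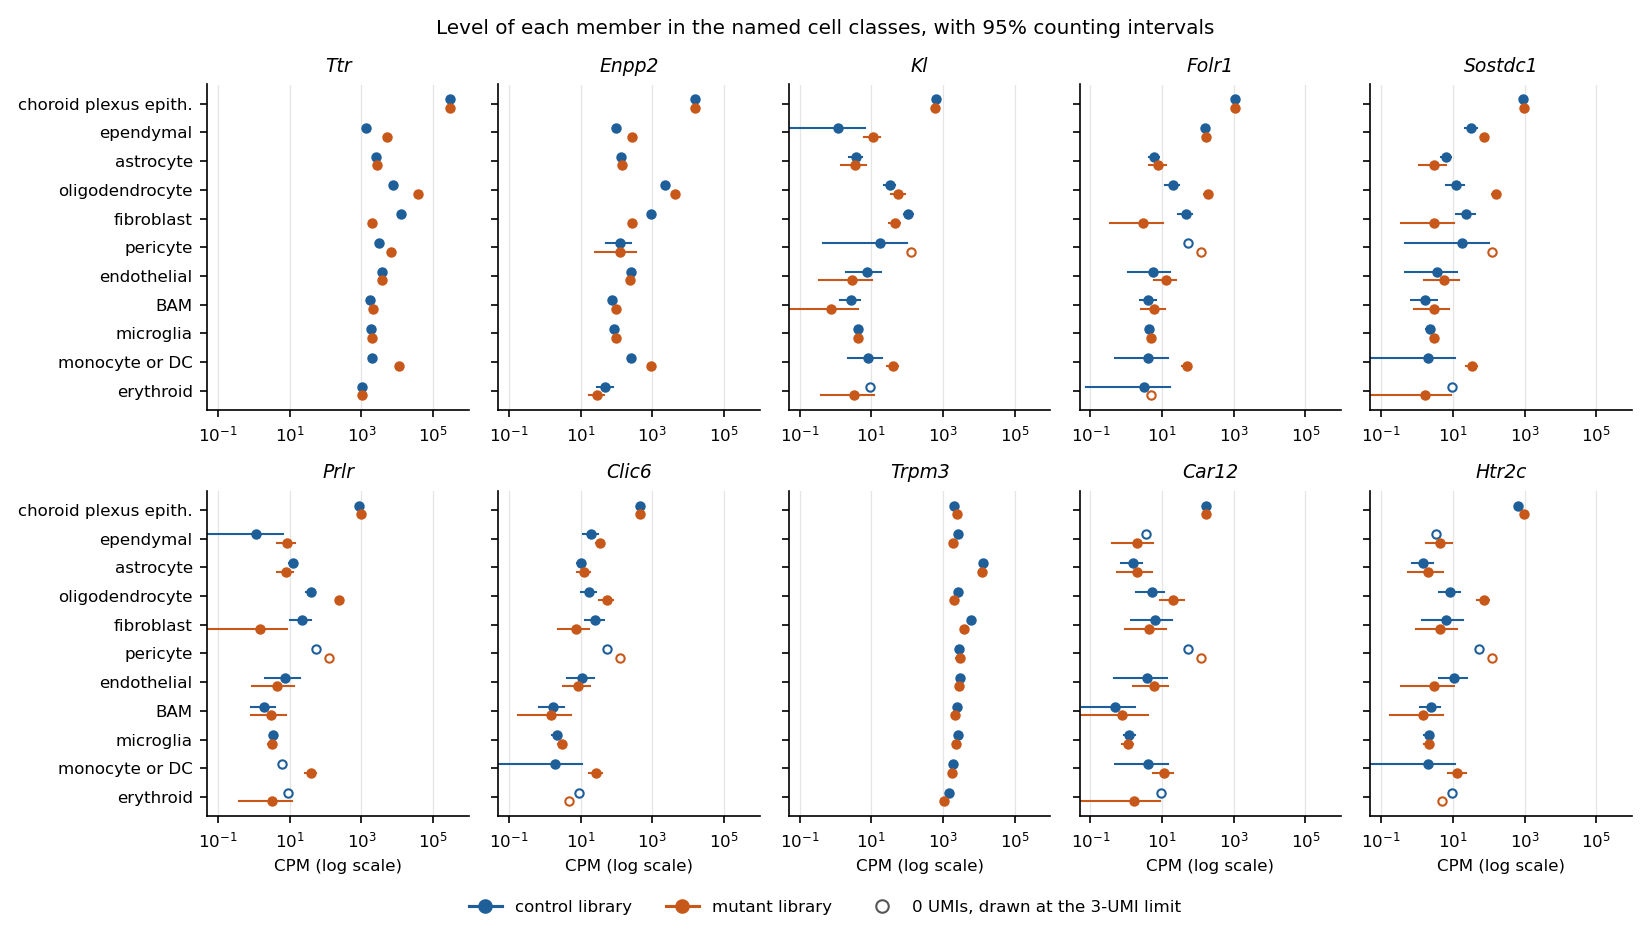
CPM (log axis) of each member in 11 named classes, for the control (blue) and the mutant (orange) library, with 95% counting intervals; open circles mark 0 UMIs, drawn at the limit of 3 UMIs, and intervals that reach below the axis are clipped. Every member except Trpm3 is highest in the choroid plexus epithelium, and Trpm3 is above 1000 CPM in every class.

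Free RNA from a single source should keep its genes in about 1 ratio. On that assumption, the UMIs each member would bring at the Ttr level of a class and library were compared with those seen. A member was called above this Ttr-scaled level when it was at least 3-fold over it, with a counting interval above 1, in both libraries. Trpm3 was called in all 10 other classes with at least 10 cells per library. Apart from Trpm3, 3 members were called in ependymal-like cells and 1 in fibroblast-like cells, and none in the 8 remaining classes. Among all 10730 genes measured the same rule called 95.8% in ependymal-like, 89.1% in fibroblast-like, 95.3% in astrocyte-like, 92.6% in microglia-like, 87.8% in BAM-like, 87.4% in endothelial-like, 80.7% in monocyte or dendritic cell-like, 77.3% in erythroid-like, 72.5% in oligodendrocyte-like and 42.2% in pericyte-like cells. The members did not all keep 1 ratio in microglia-like cells. Sostdc1 was at 0.418 (control) and 0.471 (mutant) of the scaled level, Htr2c at 0.539 and 0.329, and Prlr at 0.623 and 0.481. Folr1 was at 0.653 and 0.663, and Enpp2 at 0.927 and 0.915. All of these counting intervals lay below 1, while those of Kl, Clic6 and Car12 held 1. The reason was not tested.

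Ependymal cells, the ciliated lining of the ventricles beside the choroid plexus, held Folr1 at 160 CPM (134 to 189) in control cells and 168 CPM (148 to 189) in mutant cells. These were 32.4 (27.2 to 38.3) and 8.94 (7.89 to 10.1) times the Ttr-scaled level. A Folr1 UMI was in 83.3% of 48 control and 85.1% of 87 mutant ependymal-like cells, against 4.30% and 4.66% of microglia-like cells, with median depths of 17609 and 16895 UMIs. Thinned to 2000 UMIs the shares were 18.8% (8.95 to 32.6) and 31.0% (21.5 to 41.9), against 0.76% and 1.16%. Sostdc1 stood at 32.5 and 75.5 CPM there, 7.65 and 4.55 times the scaled level, and Clic6 at 19.7 and 34.8 CPM, 9.67 and 4.49 times. A single mutant ependymal-like cell with 18.02% Ttr held 68.7% of that class's Ttr UMIs; without it the 3 mutant values were 26.6, 11.8 and 12.7 times. Without doublet removal Folr1 alone of the 3 was called. Kl was not above the Ttr-scaled level in these cells, and Car12 and Htr2c had 0 UMIs in the control, which allows up to 3.48 CPM.

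Kl in fibroblast-like cells stood at 108 CPM (80.4 to 143) in control cells and 45.8 CPM (31.1 to 65.0) in mutant cells, 3.87 (2.88 to 5.11) and 11.6 (7.85 to 16.4) times the Ttr-scaled level. Without the single control cell rich in Ttr the first value was 21.8 times. The call was lost with up to 25% mitochondrial UMIs, at Leiden resolution 2 and without doublet removal. Enpp2, which mature oligodendrocytes are known to make, stood at 2325 CPM in control and 4398 CPM in mutant oligodendrocyte-like cells and was in every one of the 53 and 20 cells. It was 5.93 and 2.11 times the scaled level, so it missed the rule in the mutant; without cells over 2% Ttr, a setting added after the data were seen, it was 32.0 and 23.9 times. By that setting Clic6 in astrocyte-like cells was also called, at 3.30 and 3.73 times. Unnamed cluster 20, with 11 control and 17 mutant cells led by Npy, Fabp7, Ptn and Frzb, held Enpp2 at 401 and 481 CPM, 5.22 and 4.35 times the scaled level. Clic6 (7 and 5 UMIs, 20.2 and 9.30 times) and Car12 (3 and 6 UMIs, 23.4 and 28.4 times) were called there too, on few UMIs, as was Trpm3. In unnamed cluster 23, 10 mutant cells led by Ptprq, Xirp2, Kcnab1 and Espn, Car12 stood at 1084 CPM against 173 CPM in choroid plexus epithelium-like cells of that library.

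**Figure D4:**
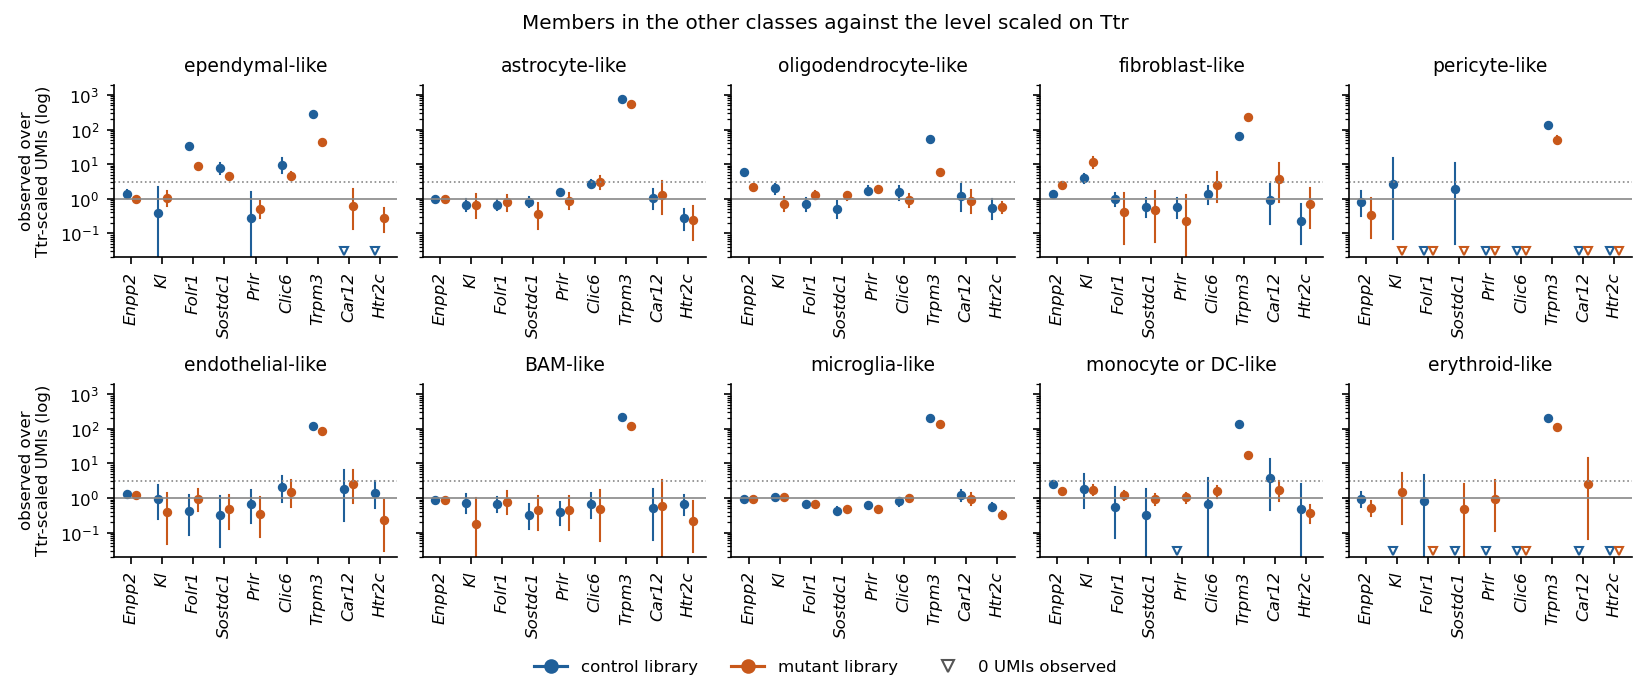
UMIs observed over the Ttr-scaled number (log axis) for the 9 members other than Ttr in each other class, control in blue and mutant in orange, with 95% counting intervals; the solid line is 1, the dotted line 3, and open triangles mark 0 UMIs observed. Folr1, Sostdc1 and Clic6 in ependymal-like cells and Kl in fibroblast-like cells lie above the dotted line in both libraries, as does Trpm3 in every class, from 5.997 to 740 times.

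Trpm3 did not follow the other members. It stood at 2579 CPM in control and 2358 CPM in mutant microglia-like cells, 127% and 93.3% of the choroid plexus level. The lowest level was in erythroid-like cells, at 1438 and 1039 CPM, and the highest in astrocyte-like cells, at 13135 and 12237 CPM. Choroid plexus epithelium-like cells ranked 10th of 12 named classes in the control and 6th in the mutant, and cluster 7 alone, at 878 and 770 CPM, was below every named class. A Trpm3 UMI was in over 99% of microglia-like cells unthinned and in 99.05% and 98.5% of them after thinning. Over the 24 points of 12 classes in 2 libraries, log2(CPM + 1) of Trpm3 had a correlation of -0.07 with the mean of the other 9 members, where each other member had 0.87 to 0.95. Those 9 members were all highest in choroid plexus epithelium-like cells, so the points of that class weigh on their correlations. The values describe the list and test nothing. In the annotation Mir204 and 4 further genes overlap Trpm3, none of them in the matrix. The Cell Ranger version named in the file headers counts reads in introns unless that is switched off, and whether it was switched off is not given in the sources used here. Levels of Trpm3, and of the long genes leading cluster 8, may therefore include UMIs from introns; their share cannot be read from these counts.

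By the same measure, the genes outside the list most like the mean of the 10 members were Prcd (0.96), Wfdc2 (0.94), Slc16a8 (0.93), Mrap2 (0.93) and Atp2b3 (0.93), among genes with at least 50 UMIs in choroid plexus epithelium-like cells. Wfdc2 was itself a marker used to name the class. Those most like Trpm3 were Ntm (0.87), Mgat4c (0.83), Gpam (0.82), Plpp3 (0.82) and Tril (0.82).

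The partners and pathways of the members were read from fixed lists in choroid plexus epithelium-like cells. Over all 10730 genes measured there, 1.77% were called higher in the mutant and 1.78% lower. The part of RNA from other cell types in the ratios of the listed genes was not tested. Of 19 genes of ion and water transport for fluid secretion, none was higher in the mutant, 1 lower and 18 called neither way, with a median log2 ratio of 0.01 against 0.04 over all genes. The lower gene was the carbonic anhydrase Car13 (3.95 and 2.43 CPM, 0.616-fold); the potassium channel gene Kcnq1 had a ratio of 1.32 (0.982 to 1.79), and the most abundant were Fxyd1, a subunit of the sodium pump, at 1198 and 1182 CPM, and the potassium channel gene Kcnj13, at 815 and 757 CPM. Of 16 other secreted proteins 2 were lower and none higher: the growth factor Igf2 at 16.5 and 10.4 CPM, 0.629-fold (0.510 to 0.775), and the superoxide dismutase Sod3 at 61.9 and 41.2 CPM, 0.665-fold (0.599 to 0.739). The cystatin gene Cst3 (2929 and 2610 CPM) and Apoe (2757 and 2752 CPM) were the highest of them. Of 11 genes of folate, vitamin and metal transport 1 was higher, the folate receptor gene Folr2, at 1.55 and 2.90 CPM. That call rests on 18 control and 50 mutant UMIs, with a ratio of 1.87 (1.07 to 3.41). Folr2 was also among the leading 10 genes of the BAM-like cluster, and the part of BAM RNA in its ratio was not tested. The reduced folate carrier gene Slc19a1 had a ratio of 1.21, and the copper transporter gene Slc31a1 stood at 237 and 224 CPM. All 14 genes of organic anion, nucleoside and hormone transport were called neither way, from Abcc1 at 0.842 to Abcc4 at 1.18, with the thyroid hormone transporter gene Slco1c1 the highest (320 and 338 CPM).

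Downstream of the receptors, none of 9 measured genes of prolactin receptor signalling was called. Stat5a and Jak2 had ratios of 0.691 (0.436 to 1.096) and 0.715 (0.524 to 0.977). The feedback inhibitor genes Cish and Socs2 had ratios on the other side of 1, at 1.339 (1.085 to 1.657) and 1.263 (1.047 to 1.528). Ptpn11 (76.1 and 69.2 CPM) and Grb2 (42.4 and 40.6 CPM) were the most abundant. Of 12 genes of serotonin receptor and Gq signalling 2 were lower: the inositol trisphosphate receptor gene Itpr2 at 5.76 and 3.30 CPM, 0.574-fold (0.396 to 0.829), and the phospholipase gene Plcb1 at 8.76 and 5.68 CPM, 0.648-fold (0.486 to 0.863). These calls rest on 67 control and 57 mutant UMIs for Itpr2, and on 102 and 98 for Plcb1. Itpr1, another inositol trisphosphate receptor gene, stood at 161 and 163 CPM and was called neither way. Of 10 genes around lysophosphatidate and klotho 1 was lower, the receptor gene Fgfr3, at 5.41 and 2.43 CPM, 0.450-fold (0.297 to 0.675). Fgfr3 is also 1 of the 8 astrocyte markers, which summed to 146 CPM in control and 110 CPM in mutant cells of the class. The part of astrocyte RNA in its ratio was not tested. The lipid phosphatase gene Plpp3 had a ratio of 0.706, and Trpv4 (61.3 and 65.5 CPM) and Plpp1 (60.0 and 61.5 CPM) were the most abundant. None of 16 genes of BMP and Wnt signalling around Sostdc1 was called; their median log2 ratio was 0.15, with Smad6 at 1.247 and the BMP targets Id1 at 156 and 187 CPM and Id3 at 215 and 248 CPM. Of 11 transcription factors of the epithelium 1 was higher, Meis1 at 3.78 and 7.59 CPM, 2.01-fold (1.42 to 2.89), with a list median of 0.22 on the log2 scale. Gmnc, one of the genes leading cluster 8, had a ratio of 1.31, and Msx1 (215 and 249 CPM) and Otx2 (216 and 243 CPM) were the highest.

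Some genes of other cell types were called as well. Of 12 microglial genes 2 were lower in mutant choroid plexus epithelium-like cells, P2ry13 (11.2 and 6.66 CPM) and the targeted gene Csf1r (31.4 and 19.8 CPM), with C1qa, a complement gene, at 101 and 84.4 CPM. Of 6 measured fibroblast and endothelial genes 3 were lower, among them the collagen gene Col1a1 (32.3 and 4.75 CPM) and Cldn5 (4.38 and 0.93 CPM), while Col1a2, the most abundant, was called neither way (50.4 and 39.8 CPM). Of 7 ependymal genes 1 was higher, Tmem212 (0.945 and 2.66 CPM), with Pltp (244 and 278 CPM) and Mia (179 and 166 CPM) the highest. The median log2 ratio was -0.27 over the microglial genes and -0.66 over the fibroblast and endothelial genes. It was 0.05 over the ependymal genes and 0.04 over all genes measured. None of 7 measured genes of RNA quality and isolation response was called, the largest ratios being 1.41 for Zfp36 and 1.29 for Ier2, and the most abundant genes Jund (184 and 177 CPM) and Jun (8.07 and 6.83 CPM). Their part in the member ratios was not tested.

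The filter on mitochondrial UMIs left many choroid plexus epithelium barcodes out, so the members were also read in all barcodes with UMIs of at least 5 of the 15 markers and at most 0.2% microglial marker UMIs. Enpp2 was higher in each band of mitochondrial share than in the one before. In the control it stood at 12829 CPM up to 5%, 14935 CPM from 5 to 10%, 17292 CPM from 10 to 20% and 20771 CPM above 20%, and in the mutant at 11680, 15086, 17986 and 21769 CPM. Kl followed the same order, from 567 to 818 CPM in the control and from 451 to 757 CPM in the mutant, while Clic6 lay between 397 and 438 CPM in all 8 groups. The bands held 131, 531, 538 and 52 control and 181, 968, 817 and 53 mutant barcodes, with median depths that were lower in each higher band, from 19700 to 7487 and from 16712 to 6513 UMIs, and the part of depth was not tested. Htr2c changed its order between the libraries: it was higher in the mutant below 10% (749 against 320 CPM in the lowest band, 874 against 646 CPM in the next) and lower above it (324 against 637 CPM from 10 to 20%, 287 against 1975 CPM above 20%). Trpm3 was higher in the mutant in the lowest band, at 2615 against 1261 CPM, and lower in the others, at 2388 against 2625, 1098 against 2199 and 1112 against 4715 CPM. The counting intervals of the genotypes did not overlap in any of these bands for either gene. How many cells of the kind in cluster 8 each band holds was not tested.

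**Figure D5:**
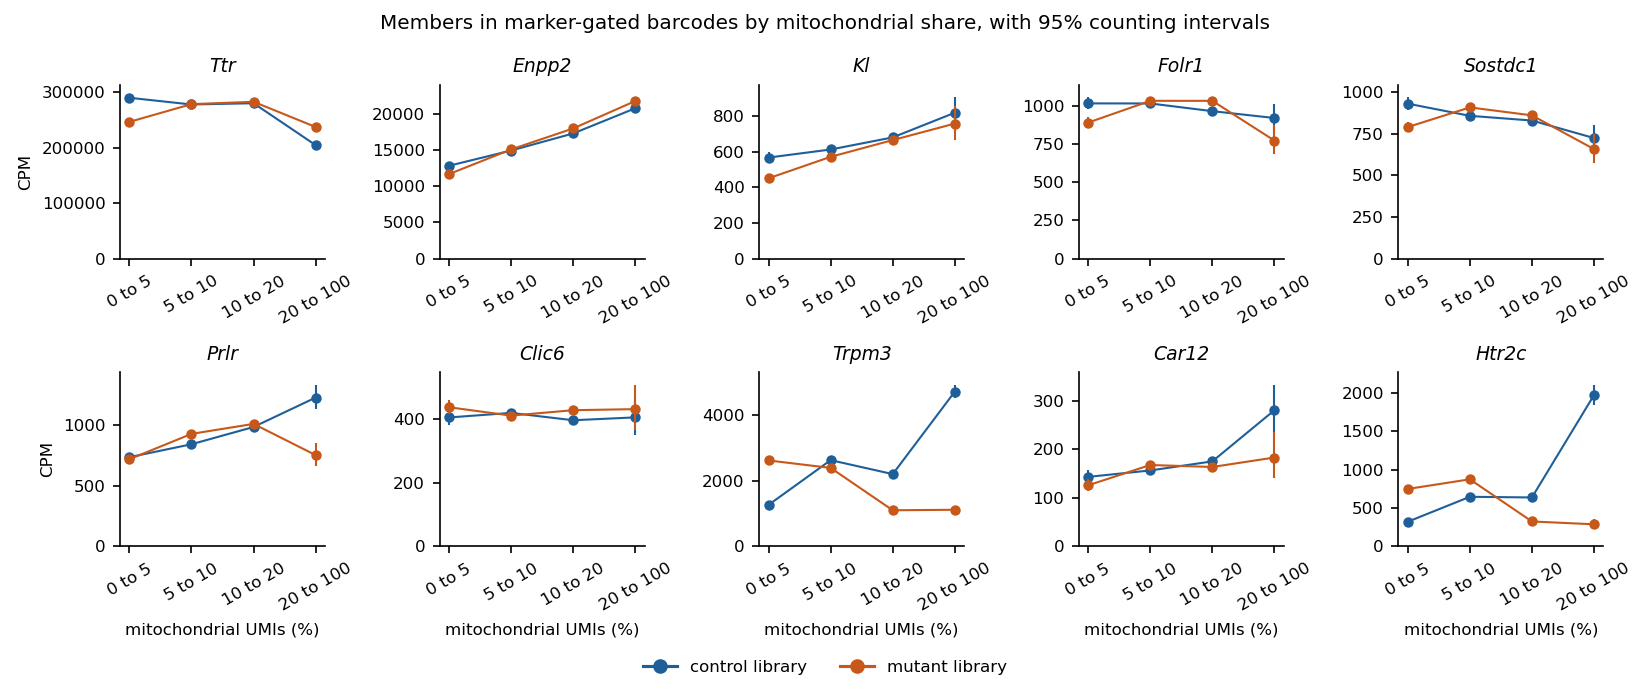
CPM of each member in marker-gated barcodes by the share of mitochondrial UMIs (4 bands on the x axis), control in blue and mutant in orange, with 95% counting intervals; y axes start at 0. Enpp2 and Kl are higher in each successive band in both libraries, and the control and mutant lines of Htr2c and Trpm3 cross.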

How the data were processed

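Cells of whole adult mouse brain were profiled by 10x Genomics 3′ v3.1 droplet sequencing, 1 library per genotype. The authors deposited filtered matrices of raw UMI counts made with Cell Ranger 7.1.0, per the file headers; the build is GRCm38.p6 (mm10), per the submitters' processing notes. Cell Ranger of this version counts introns by default; whether the authors kept that, how cells were called and whether free RNA was corrected for is not given in the sources used here.

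A cell was kept with 500 or more genes and a mitochondrial share of 10% or less, and doublets marked by Scrublet (229 of 8739 control and 220 of 8735 mutant barcodes) were left out. Scrublet was run on all barcodes because on kept cells alone it marked too few, a change made after seeing that. Clustering (scanpy 1.11.5, 2000 variable genes without the 10 members, 30 components, 15 neighbours, Leiden resolution 1) gave 24 clusters, named from fixed markers. After their leading genes were seen, clusters under 50 cells with no marker of their own among the leading 10 were left unnamed. Levels are UMI sums over a class in 1 library, and ratios carry exact Poisson 95% intervals (scipy 1.17.1), which cover counting error only; shares carry Clopper-Pearson intervals. A gene was called at 1.5-fold or more with an interval excluding 1, given at least 50 UMIs. A count of 0 allows up to 3 counts. The 1.5-fold rule was tested on Poisson counts simulated from the class means. Clustering, class naming and the Ttr-scaled levels were not tested in this way.

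The members and gene lists were chosen with earlier results of these data known. Named genes are all members, from each list the 2 to 4 genes with the largest change and the 2 most abundant, and the 5 genes most like the members; the 5 genes most like Trpm3 and the genes of unnamed clusters were added after their values were seen. Some genes that this rule names are not reported here. Positions are from GENCODE vM21.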

Additional observations from a re-analysis of the deposited data

Results flagged for a closer look

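Barcodes that the filters removed still carried choroid plexus epithelium signal. Of 2997 barcodes left out of the control library, 618 (20.6%) had UMIs of at least 5 choroid plexus epithelium markers, and of 2441 left out of the mutant library 883 (36.2%) did. Ttr made up 27.3% and 27.9% of the UMIs of these barcodes. The same gate took 625 of 631 control and 1067 of 1070 mutant choroid plexus epithelium-like cells, and 1 of 2699 and 1 of 2663 microglia-like cells. These barcodes were singled out because they lie outside the cells the comparisons use.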

How the results depend on the processing

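No member was called higher or lower in choroid plexus epithelium-like cells under any of the 16 alternatives run, and 88 of the 159 member ratios were above 1. All alternatives read the same 2 libraries, and the limit of at least 20 UMIs left every ratio as it was. The limit of 5% mitochondrial UMIs left a cluster of 4 control and 16 mutant cells with 14 of the markers out of the class. Htr2c ranged from 1.033 to 1.493, Trpm3 from 0.877 to 1.247, Kl from 0.809 to 0.935 and Car12 from 0.779 to 1.116. These ranges leave out the single mitochondrial bands of marker-gated barcodes, where mutant against control Htr2c went from 749 against 320 CPM up to 5% to 287 against 1975 CPM above 20%, and Trpm3 from 2615 against 1261 to 1112 against 4715 CPM. Subtracting the microglia-like level gave no Trpm3 value. In the control the choroid plexus epithelium-like level of Trpm3 was only 0.787 times the microglia-like level. Of the 4 calls above the Ttr-scaled level other than Trpm3, 1 was left with a 5-fold limit and 1 with no doublet removal, Folr1 in ependymal-like cells in both; no fibroblast-like class was named without doublet removal. The other alternatives gave 3 to 6 such calls. No paired analysis was possible because each genotype has 1 library, and for the same reason no library could be left out. Classes of under 100 cells limit the counts behind Car12 and Htr2c outside the choroid plexus.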
